A study of Mus musculus with 6 samples.

Results

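The immediate early activity genes examined here are 10 genes chosen by symbol, *Fos*, *Fosb*, *Junb*, *Arc*, *Egr1*, *Egr3*, *Npas4*, *Nr4a1*, *Dusp1* and *Ier2*. All 10 were found among the 53746 genes of the count table, and 9 passed the filter on low counts that left 16961 genes to test. RNA of whole cerebellum was sequenced in 6 mice at 2 months of age, 3 of genotype N153SLSL/LSLPcp2-cre (called Pcp2-cre mice) and 3 of genotype N153SLSL/LSL (called control mice). Both genotypes carry the *Sting1* N153S knockin allele behind a LoxP-Stop-LoxP cassette, and *Pcp2-cre* removes the stop in Purkinje cells, so control mice carry the silent allele and no Cre. Mice 1 and 2 of each genotype were labelled male and mouse 3 female. The comparison addresses how the cerebellar transcriptome differs when STING, an innate immune adaptor, is constitutively active in Purkinje cells.

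Immediate early genes are transcribed within minutes of a stimulus and need no new protein synthesis for it. In neurons, calcium entry and growth factor signals activate kinases that act on transcription factors already bound at these promoters, among them CREB at cAMP response elements (CRE) and SRF at CArG boxes. Many of the products are transcription factors themselves, such as the Fos and Jun proteins that pair to form AP-1, and others act at synapses or shut the kinases off again. Their mRNAs are short lived and are widely used as marks of recent neuronal activity, although glia and vessels transcribe many of them as well.

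Promoter sequences from RefSeq (GRCm38.p6) were held for 6 of the 10 genes, *Fos*, *Fosb*, *Junb*, *Npas4*, *Nr4a1* and *Dusp1*. The 250 bases before the start of transcription are shown for the 4 genes that passed the test below, because CREB is a known regulator of this class and its core motif TGACG (either strand, in capitals) occurs in each. The windows are chr12:85473640-85473889 on the forward strand for *Fos*, chr19:4989972-4990221 on the reverse strand for *Npas4*, chr17:26508473-26508722 on the reverse strand for *Dusp1* and chr15:101266596-101266845 on the forward strand for *Nr4a1*.
Fos: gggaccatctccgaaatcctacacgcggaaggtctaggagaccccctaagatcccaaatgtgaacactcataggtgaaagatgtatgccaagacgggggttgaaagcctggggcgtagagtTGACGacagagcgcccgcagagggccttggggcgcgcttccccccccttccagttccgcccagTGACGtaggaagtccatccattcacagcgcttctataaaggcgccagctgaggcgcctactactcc
Npas4: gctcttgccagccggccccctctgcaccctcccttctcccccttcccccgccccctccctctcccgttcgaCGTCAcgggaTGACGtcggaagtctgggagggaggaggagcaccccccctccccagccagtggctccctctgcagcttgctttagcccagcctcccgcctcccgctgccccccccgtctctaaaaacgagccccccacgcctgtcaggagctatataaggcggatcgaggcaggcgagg
Dusp1: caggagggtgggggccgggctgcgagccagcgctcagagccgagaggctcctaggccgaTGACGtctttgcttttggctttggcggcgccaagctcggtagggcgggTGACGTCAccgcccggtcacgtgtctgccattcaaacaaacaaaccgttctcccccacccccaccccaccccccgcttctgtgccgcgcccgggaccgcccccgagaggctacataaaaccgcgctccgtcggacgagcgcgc
Nr4a1: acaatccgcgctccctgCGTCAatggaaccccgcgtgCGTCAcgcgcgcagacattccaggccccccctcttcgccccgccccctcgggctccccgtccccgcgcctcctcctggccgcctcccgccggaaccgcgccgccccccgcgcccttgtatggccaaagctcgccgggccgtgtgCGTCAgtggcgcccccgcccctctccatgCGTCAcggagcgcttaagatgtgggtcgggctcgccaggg

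The core motif occurred 2 times before *Fos*, at 129 and 66 bases before the start, and 2 times before *Npas4*. It occurred 4 times before *Nr4a1* and 3 times before *Dusp1*, where 2 of the 3 overlap in a full palindromic CRE (TGACGTCA). *Fosb* and *Junb* had 1 core motif each. All 6 windows thus held the motif, which 17.8% of 32851 promoter windows of the same length did, and 3.90% held 2 or more. The full CRE was in 1.55% of all windows. The CArG box was in none of the 6 windows and in 1.47% of all windows, and these letters may lie outside the 250 bases. A match of letters is a description and not evidence of binding.

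Total counts per mouse lay between 6733178 and 10178218, and a floor of 3 counts came to 0.297 to 0.447 CPM (counts scaled to library size), which covers counting error only. CPM values are scaled by TMM, a factor that makes most genes equal between libraries. Genotypes were compared with edgeR's quasi-likelihood test over all 16961 genes, with Benjamini-Hochberg adjustment. A gene was said to rise or fall at an adjusted p of at most 0.05, and was called when its log2 fold change was also at least 0.5 in size. The defining genes of cerebellum were present, with all 12 Purkinje cell and all 11 granule cell markers detected. Each library mixes all cell types, so more cells of a type and more RNA per cell cannot be told apart. The labels name separate mice. The p-values of edgeR and limma rest on the spread between these mice, estimated for each gene with help from the other tested genes. Only the exact permutation p uses the values of a gene alone. Values of a genotype are listed in the order of its mice 1, 2 and 3, and s.e. is the standard error.

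Of the 9 tested immediate early genes, 4 rose in Pcp2-cre cerebella, namely *Fos*, *Npas4*, *Dusp1* and *Nr4a1*, and none fell. Of all tested genes 2.99% rose and 4.75% fell. *Fos* and *Npas4* were called, against 1.37% of all tested genes called higher and 1.79% called lower. The log2 fold changes of all 9 genes were above 0, with a median of 0.30, while the median of all tested genes was 0.0045 and 8704 of 16961 lay above 0. For 5 of the 9 genes the genotypes did not overlap, with Pcp2-cre mice higher, which 10.8% of all tested genes showed. In the lower direction 11.4% of all tested genes and 0 of the 9 did so.

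**Figure D1:**
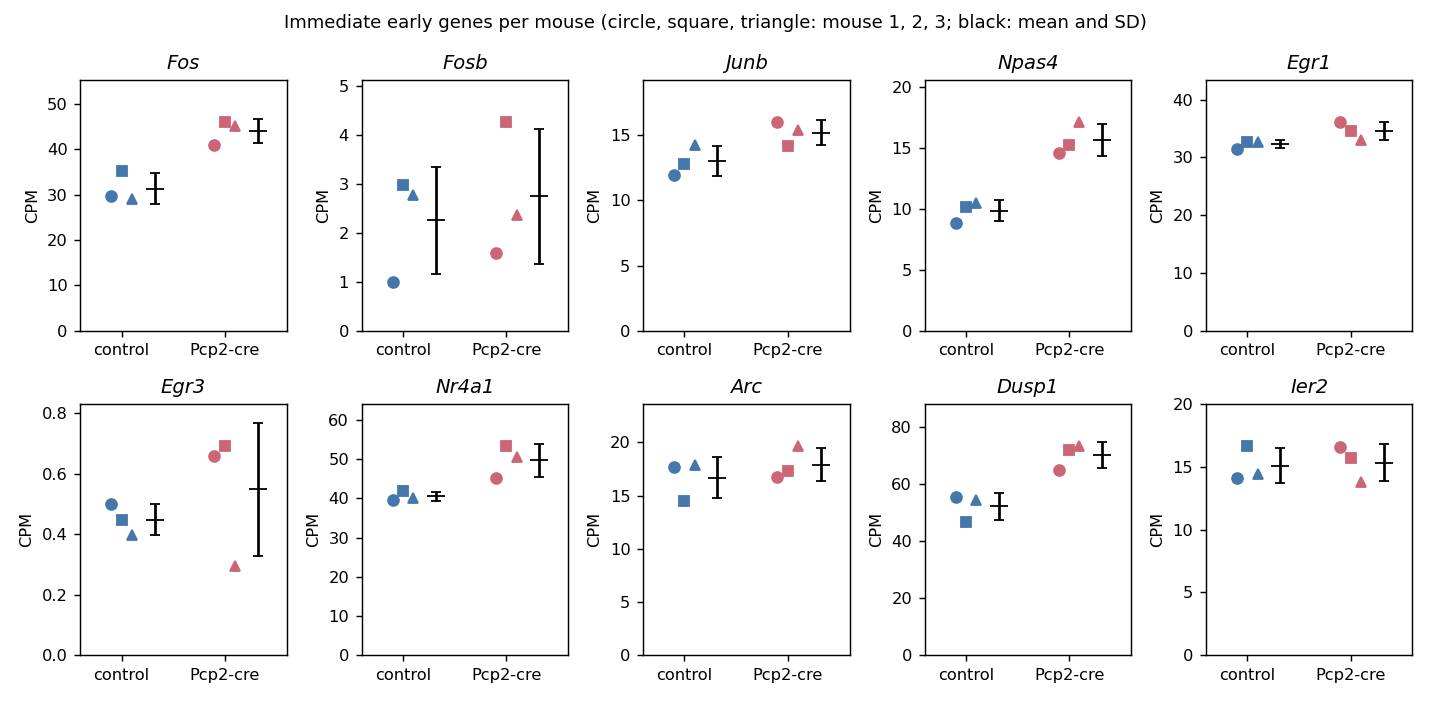
CPM of the 10 immediate early genes (y axis, each panel from 0) in 3 control and 3 Pcp2-cre mice, with each mouse as 1 symbol and the mean ± SD in black. The groups are apart for *Fos*, *Npas4*, *Dusp1* and *Nr4a1*, narrowly apart for *Egr1*, and overlap for the other genes.

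The Fos and Jun family members pair to form AP-1. *Fos* (ENSMUSG00000021250, chromosome 12 of GRCm39 from 85520658 to 85524047) encodes its prototype subunit. In control mice 1, 2 and 3 it had 29.7, 35.3 and 29.1 CPM, and in Pcp2-cre cerebella it had 41.1, 46.2 and 45.1 CPM. The lowest Pcp2-cre mouse lay above the highest control, which was mouse 2. The means were 31.4 ± 3.41 and 44.1 ± 2.68 CPM (SD, n = 3 per genotype). The log2 fold change was 0.51 with a 95% interval of 0.33 to 0.68 (s.e. 0.0817, edgeR adjusted p = 2.22e-04). This value lies just past the threshold of 0.5. It was 0.47 without control mouse 1, 0.45 without control mouse 3, 0.47 without Pcp2-cre mouse 2 and 0.49 without Pcp2-cre mouse 3, each with an adjusted p of at most 0.0110 from the same edgeR test.

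*Fosb* (ENSMUSG00000003545, chromosome 7 from 19036621 to 19043976), a paralog of *Fos*, was sparse. It had 8, 20 and 28 counts in control cerebella and 12, 37 and 16 counts in Pcp2-cre cerebella. The groups overlapped widely, and mouse 1 was the lowest of its group in both genotypes. The log2 fold change was 0.32 with a 95% interval from -0.43 to 1.06 (edgeR adjusted p = 0.726), an interval that holds both 0 and the change of *Fos*.

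*Junb* (ENSMUSG00000052837, chromosome 8 from 85701113 to 85705359) encodes a Jun partner in AP-1. It had 96, 86 and 144 counts in control and 122, 123 and 104 counts in Pcp2-cre cerebella, or 13.0 ± 1.16 and 15.2 ± 0.947 CPM (mean ± SD, n = 3 per genotype). Pcp2-cre mouse 2 lay below control mouse 3 in CPM (14.2 against 14.3), and the difference did not pass the test (log2 fold change 0.21, 95% interval -0.02 to 0.45, edgeR adjusted p = 0.341). Its annotated exons overlap those of *Prdx2* on the opposite strand by 173 bp, and since the use of strand in counting is not given in the sources used here, reads in that stretch are uncertain.

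Among the other transcription factors, the largest fold change of the 9 tested genes in counts belonged to *Npas4* (ENSMUSG00000045903, chromosome 19 from 5034382 to 5040344). *Npas4* is a bHLH-PAS factor whose transcription in neurons follows calcium influx rather closely. It had 71, 68 and 106 counts in control and 111, 132 and 116 counts in Pcp2-cre cerebella, which is 8.86, 10.1 and 10.5 CPM against 14.6, 15.2 and 17.2 CPM. The groups did not overlap. The means were 9.83 ± 0.862 and 15.7 ± 1.33 CPM (mean ± SD, n = 3 per genotype), a difference of 0.66 on the log2 scale with a 95% interval of 0.41 to 0.92 (s.e. 0.121, edgeR adjusted p = 7.98e-04). With single mice left out it lay between 0.59 and 0.72 with an adjusted p of at most 0.0101 (edgeR).

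*Nr4a1* (ENSMUSG00000023034, chromosome 15 from 101151980 to 101172681) encodes the orphan nuclear receptor Nur77. It had 39.7, 41.8 and 40.0 CPM in control and 45.2, 53.4 and 50.6 CPM in Pcp2-cre cerebella. Controls lay close together and every Pcp2-cre mouse lay above them. The log2 fold change was 0.30 with a 95% interval of 0.15 to 0.45 (s.e. 0.0725, edgeR adjusted p = 0.0102), under the threshold of 0.5. The adjusted p was 0.0538 without control mouse 1 and 0.129 without Pcp2-cre mouse 2 in the same edgeR test. An annotated gene on the opposite strand, *Gm63180*, overlaps the exons of *Nr4a1* by 656 bp. It was not in the count table, so an effect of it on the *Nr4a1* counts is not shown.

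*Egr1* and *Egr3* encode zinc finger factors. *Egr1* (ENSMUSG00000038418, chromosome 18 from 34992876 to 34998049) had 31.4, 32.8 and 32.7 CPM in control and 36.2, 34.5 and 33.0 CPM in Pcp2-cre cerebella. Each Pcp2-cre mouse lay above each control, by as little as 33.0 against 32.8 CPM, but the log2 fold change of 0.10 (95% interval -0.05 to 0.25) did not pass the test (edgeR adjusted p = 0.547). *Egr3* (ENSMUSG00000033730, chromosome 14 from 70314350 to 70320063) had 4, 3 and 4 counts in control and 5, 6 and 2 counts in Pcp2-cre cerebella, close to the floor of 3 counts. It did not pass the filter, and a difference in *Egr3* was not detectable at this depth.

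*Dusp1* and *Arc* are not transcription factors. *Dusp1* (ENSMUSG00000024190, chromosome 17 from 26724564 to 26781102) encodes a phosphatase that switches off MAP kinases and so limits the signal that induces the other genes. It had 55.6, 46.8 and 54.4 CPM in control and 65.2, 72.3 and 73.5 CPM in Pcp2-cre cerebella. The groups did not overlap, and control mouse 2 was the lowest of the 6. The means were 52.3 ± 4.81 and 70.3 ± 4.49 CPM (mean ± SD, n = 3 per genotype), a difference of 0.42 on the log2 scale with a 95% interval of 0.28 to 0.56 (s.e. 0.0676, edgeR adjusted p = 2.12e-04). *Dusp1* had the smallest p of the 9 and ranked 365 among all tested genes, and its exons overlap those of *Ergic1* on the opposite strand by 38 bp.

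*Arc* (ENSMUSG00000022602, chromosome 15 from 74540932 to 74544419) encodes a synaptic protein that drives removal of AMPA receptors. It had 17.7, 14.4 and 17.8 CPM in control and 16.7, 17.3 and 19.7 CPM in Pcp2-cre cerebella. Controls 1 and 3 lay above Pcp2-cre mice 1 and 2, and the log2 fold change of 0.09 (95% interval -0.14 to 0.31) did not pass the test (edgeR adjusted p = 0.762). *Ier2* (ENSMUSG00000053560, chromosome 8 from 85387960 to 85389483), a small nuclear protein gene induced by growth factors, had 14.1, 16.7 and 14.5 CPM in control and 16.6, 15.7 and 13.8 CPM in Pcp2-cre cerebella. Its highest and its lowest value belonged to different genotypes with no separation, and the log2 fold change was 0.04 (95% interval -0.19 to 0.27, edgeR adjusted p = 0.909). For *Arc*, *Egr1* and *Ier2* the upper ends of the intervals (0.31, 0.25 and 0.27) lie under the lower ends for *Fos* and *Npas4* (0.33 and 0.41), although a difference between genes was not itself tested.

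**Figure D2:**
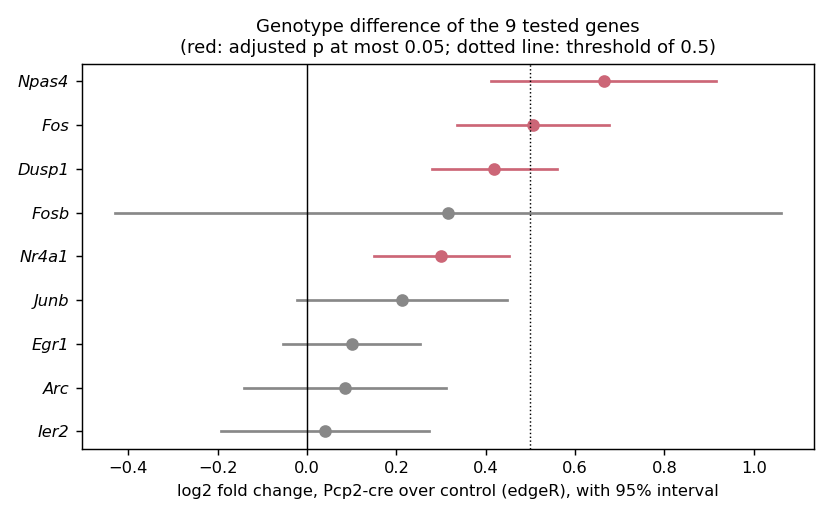
Log2 fold change of Pcp2-cre over control (x axis) with its 95% interval for the 9 tested genes (rows), from edgeR. *Npas4*, *Fos*, *Dusp1* and *Nr4a1* (red, adjusted p of at most 0.05) have intervals above 0, and the intervals of the other 5 genes (grey) include 0.

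Mouse by mouse, the mean log2 CPM of the 9 genes relative to the control mean was -0.13, 0.06 and 0.07 in controls and 0.19, 0.37 and 0.30 in Pcp2-cre cerebella. This mean leans on the sparse *Fosb*, which had -0.88, 0.49 and 0.39 in controls and -0.33, 0.97 and 0.19 in Pcp2-cre cerebella. The median of the 9 genes was -0.07, 0.05 and 0.06 in controls and 0.16, 0.40 and 0.24 in Pcp2-cre cerebella. Pcp2-cre mouse 2 had all 9 genes above the control mean, and Pcp2-cre mice 1 and 3 had 8 each. Control mouse 1 held the lowest value of the 6 mice in 5 of the 9 genes. Each Pcp2-cre mouse was among the 3 highest in 7 of the 9 genes, while control mice 1, 2 and 3 were so in 1, 2 and 3 genes. These counts include the 5 genes whose genotypes did not overlap, for which they follow by definition. The same count was not taken over all genes. Without control mouse 1 the median log2 fold change of the 9 genes was 0.15, and 7 of the 9 lay above 0.

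Levels between genes were compared in FPKM, which the authors scaled to exon length. In control mice *Dusp1* was highest at 21.6 ± 1.29 FPKM, followed by *Nr4a1* (14.5 ± 1.32 FPKM) and *Fos* (12.6 ± 1.98 FPKM), which overlapped each other. *Ier2*, *Egr1* and *Arc* followed at 7.71 ± 0.379, 5.77 ± 0.161 and 4.44 ± 0.453 FPKM, each apart from the next. *Junb* and *Npas4* overlapped at 2.45 ± 0.0784 and 2.39 ± 0.297 FPKM, and *Fosb* (0.510 ± 0.315 FPKM) and *Egr3* (0.101 ± 0.00874 FPKM) were lowest (mean ± SD, n = 3 per genotype). When counts were divided by the full annotated exon length instead, a choice made after the data were seen, *Nr4a1* moved from rank 2 to rank 7, while *Dusp1* stayed at rank 1 and *Fos* moved to rank 2.

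**Figure D3:**
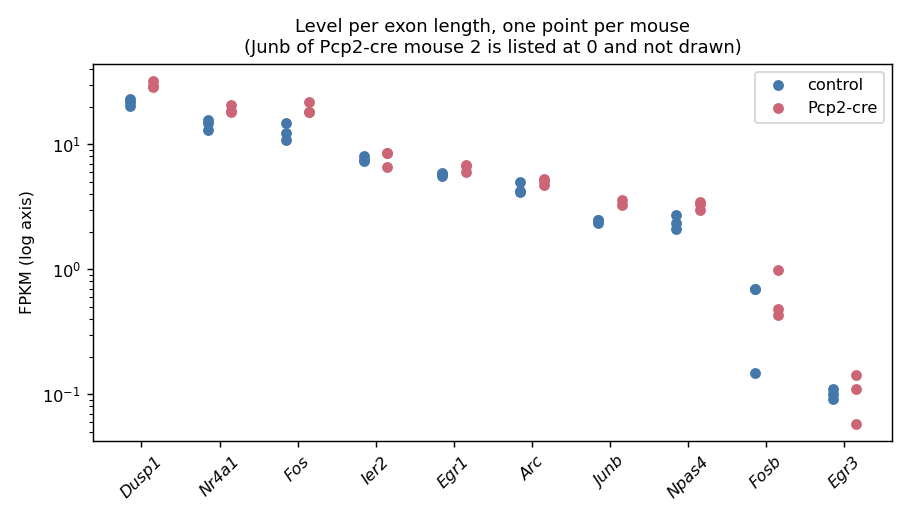
FPKM of the 10 genes (y axis, log scale), 1 point per mouse, ordered by the control mean. Levels run from about 21.6 FPKM for *Dusp1* to 0.101 FPKM for *Egr3* in control mice.

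In FPKM the same 5 genes did not overlap between genotypes, *Dusp1*, *Nr4a1*, *Fos*, *Egr1* and *Npas4*, with Pcp2-cre mice higher. Each had an exact two-sided permutation p of 0.10, the smallest that 3 mice against 3 allow. The share of all genes that did so was not taken in FPKM. In CPM it was 10.8% of all tested genes. *Fos* had 12.3, 14.7 and 10.8 FPKM in control and 18.0, 21.7 and 18.2 FPKM in Pcp2-cre cerebella. *Npas4* had 2.36, 2.70 and 2.11 FPKM in control and 2.98, 3.35 and 3.48 FPKM in Pcp2-cre cerebella. *Junb* was listed at 0 FPKM in Pcp2-cre mouse 2, where it had 123 counts, so its FPKM was not compared. In limma on log2(FPKM + 1) *Dusp1* passed the test with a difference of 0.46 (adjusted p = 0.0214). *Fos*, *Npas4* and *Nr4a1* differed by 0.59, 0.34 and 0.38 on that scale, with adjusted p of 0.0828, 0.147 and 0.0786 in limma. *Npas4* was thus lower than its 0.66 in counts and no longer the largest (0.44 on log2(FPKM + 0.1), against 0.62 for *Fos* and 0.47 for *Dusp1*).

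The wider activity programme was read from lists of other genes. Of all tested genes 2.99% rose and 4.75% fell, while 1.37% were called higher and 1.79% lower. Of 25 other early transcription factors and regulators 24 were tested, and 6 rose and none fell, with a median log2 fold change of 0.15. *Atf3*, a stress-induced partner of AP-1 proteins, was called. It had 5, 9 and 14 counts in control and 23, 43 and 27 counts in Pcp2-cre cerebella. The groups did not overlap, and the log2 fold change was 1.82 (s.e. 0.304, edgeR adjusted p = 3.07e-04). *Jun*, the main partner of Fos, rose from 61.3 ± 5.29 to 83.5 ± 1.04 CPM (mean ± SD, n = 3 per genotype), a difference of 0.43 on the log2 scale (edgeR adjusted p = 2.16e-05). *Nr4a3* and *Nr4a2*, the paralogs of *Nr4a1*, rose with log2 fold changes of 0.43 and 0.31, so that all 3 genes of this receptor family were higher. *Fosl2* (0.37) and *Jund* (0.15) of the AP-1 family rose too, with edgeR adjusted p of 0.0334 and 0.0493, the latter just under 0.05. *Fosl1* had a log2 fold change of 0.02 and an adjusted p of 0.967 (edgeR).

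Of 20 early signalling genes 18 were tested. *Rgs2*, an inhibitor of G protein signalling, rose with a log2 fold change of 0.38 (edgeR adjusted p = 0.0231), and none fell. Thus 1 of the 18 rose, against 2.99% of all tested genes. *Pim1*, a kinase gene, had a log2 fold change of -0.44 and *Ccn1*, a matrix protein gene, 0.68, with adjusted p of 0.0533 and 0.196 (edgeR). The list's median was -0.05. The other MAP kinase phosphatases of the list had log2 fold changes of -0.26 for *Dusp4*, -0.07 for *Dusp5* and -0.18 for *Dusp6*, none past the test.

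Of 16 synaptic and later response genes 15 were in the table and 14 were tested. Of these 14, 3 rose and 2 fell, against 2.99% and 4.75% of all tested genes. *Vgf* and *Scg2*, which encode secretory granule proteins, rose with log2 fold changes of 0.42 and 0.21, and *Nrn1*, which encodes neuritin, rose by 0.17. *Nptx1*, a pentraxin gene, fell by 0.24 and *Mef2c*, a transcription factor gene, fell by 0.29 on the log2 scale. *Bdnf*, the neurotrophin gene, had 21.3 and 26.3 CPM on average in control and Pcp2-cre mice, with an adjusted p of 0.0565 (edgeR).

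Of 25 upstream regulators all were tested and 2 fell, against 4.75% of all tested genes. Of the 25, 1 was called lower, against 1.79% of all tested genes. *Camk2a*, a calcium-dependent kinase gene expressed in Purkinje cells, was called, falling from 95.9 ± 6.71 to 42.4 ± 3.57 CPM (mean ± SD, n = 3 per genotype), a difference of -1.17 on the log2 scale (edgeR adjusted p = 8.28e-11). *Rps6ka5*, which encodes the kinase MSK1, fell by 0.26. *Creb1* and *Srf*, the factors at CRE and CArG boxes, had log2 fold changes of 0.09 and -0.04 and did not pass the test. *Map2k1*, a kinase gene of the MAP kinase cascade, had a log2 fold change of -0.12 with an adjusted p of 0.104 (edgeR).

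**Figure D4:**
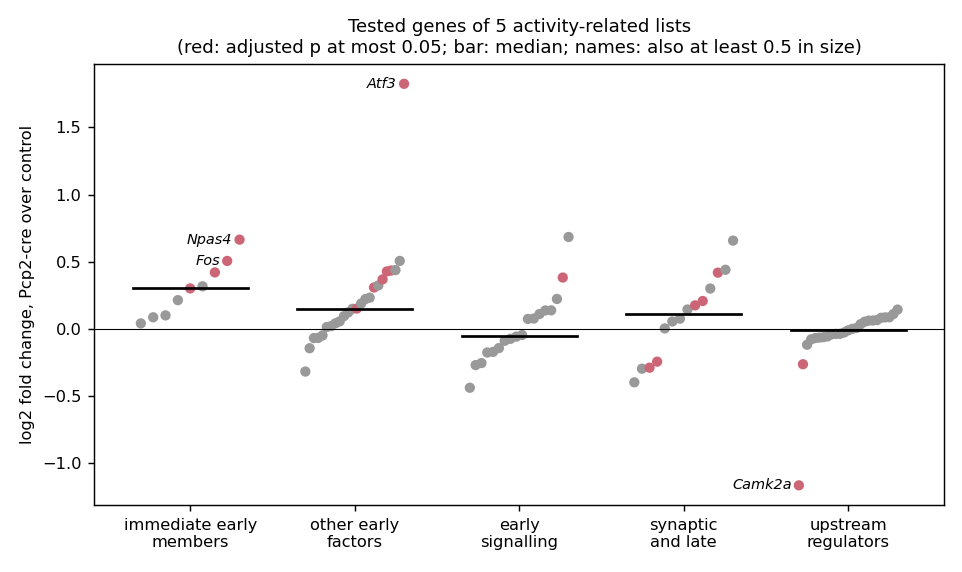
Log2 fold change of Pcp2-cre over control (y axis) for the tested genes of 5 lists (x axis), with red points at an adjusted p of at most 0.05, bars at the median and names on called genes. The medians are 0.30 for the immediate early genes, 0.15 for other early factors, -0.05 for early signalling, 0.11 for synaptic and late and -0.01 for upstream genes.

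Markers of several cell types moved with genotype beside these genes. Of all tested genes 2.99% rose, 4.75% fell and 1.37% were called higher. Of 10 microglial markers 8 were called higher, and their summed level was 112 to 114 CPM in control and 289 to 320 CPM in Pcp2-cre mice. Of 10 astrocyte and Bergmann glia markers 5 rose, 2 of them called, and *Gdf10* and *Slc1a3* fell by 0.25 and 0.22 on the log2 scale (sums of 2472 to 2548 against 2904 to 2993 CPM). All 12 Purkinje cell markers fell, and their sum was 8490 to 9038 against 5207 to 5616 CPM. Of 11 granule cell markers *Neurod1* rose by 0.17 on the log2 scale and none fell, with sums of 6793 to 6985 and 7006 to 7256 CPM. No marker in these 4 lists was at 0 in all mice. The part of any of these cell types in the immediate early gene levels was not tested.

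Choroid plexus markers differed between libraries, with a sum of 832, 1286 and 35.5 CPM in control cerebella and 26.1, 34.1 and 92.9 CPM in Pcp2-cre cerebella. Of the 7 tested markers 6 were called lower, against 1.79% of all tested genes. Control mice 1 and 2 held the highest sums, so these markers and genotype cannot be fully told apart. A score of these markers was added as a covariate, a choice made after the data were seen. The log2 fold changes of *Fos*, *Npas4*, *Dusp1* and *Nr4a1* were then 0.61, 0.63, 0.39 and 0.33, with an adjusted p of at most 0.0390 (edgeR). The median of the 9 genes went from 0.30 to 0.11, the value of the sparse *Fosb*, which was then the middle gene. Signs of handling were read from 10 heat shock genes and 10 glucocorticoid-responsive genes. No heat shock gene passed the test, and *Hspa1a* and *Hspa1b*, which share near-identical sequence, had log2 fold changes of 0.22 and 0.31. For these 2 of the 10 the genotypes did not overlap, with Pcp2-cre mice higher, which 10.8% of all tested genes showed. Of the 10 glucocorticoid-responsive genes 3 fell, 1 of them called, and 1 rose, against 4.75%, 1.79% and 2.99% of all tested genes. *Zbtb16* (called), *Fkbp5* and *Tsc22d3*, which glucocorticoids induce, fell by 0.61, 0.35 and 0.23, and *Mt1*, a metallothionein gene, rose by 0.24. The list's sums overlapped between genotypes (670 to 711 CPM in control and 663 to 696 CPM in Pcp2-cre mice), and its median log2 fold change was -0.07. Summed blood markers overlapped between genotypes (16.6 to 64.9 against 8.14 to 47.3 CPM).

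The genes most like the immediate early genes were sought among 5524 genes outside the activity lists. Their SD over the 6 mice was at least that of the mean profile of the 9 genes (0.183), not that of each member. Likeness was the root mean square difference in centred log2 CPM from this mean profile, which leans on the sparse *Fosb*. *Pla2g4b*, *Mutyh*, *Sdc1*, *Nmb* and *Gm5141* came nearest, with differences of 0.0364, 0.0459, 0.0507, 0.0533 and 0.0594. *Pla2g4b* had 6.36, 7.44 and 7.73 CPM in control and 8.69, 9.58 and 9.17 CPM in Pcp2-cre cerebella. None of the 5 passed the genotype test, and with 6 mice and this many candidates such likeness is a description of these libraries.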

How the data were processed

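Cerebellar poly A-enriched RNA of 3 Pcp2-cre and 3 control mice was analysed, grouped by the sample labels. The authors used STAR to align trimmed paired reads to GRCm39 and deposited raw counts per Gencode gene (featureCounts) and, in a second table, FPKM. Tool versions and the use of strand are not given in the sources used here, and that StringTie made the FPKM table was inferred. Of genes with at least 100 counts in a mouse, 69 to 97 per mouse were listed at 0 FPKM.

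The counts were fitted with edgeR 4.0.16 under R 4.3.3 (its quasi-likelihood test after TMM scaling and filterByExpr), and FPKM with limma 3.58.1 and exact permutation tests (scipy 1.17.1). Scripts were tested on simulated counts. Gencode M39 gave gene coordinates and overlapping exons. Named were all 10 members, every called gene of the other activity lists with at least the 3 smallest p per list, and the 5 genes most like the members. Others, such as AP-1 and Dusp relatives, *Creb1*, *Srf* and *Bdnf*, and genes beyond the 3 that passed the test, were named after their values were seen. Members and lists were chosen with earlier results of these data known. Also tried were the likelihood ratio test of edgeR, DESeq2 1.42.0, other scalings, filters, covariates, thresholds and units, a replicate block, and each mouse left out.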

Additional observations from a re-analysis of the deposited data

How the results depend on the processing

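In each of the 17 alternatives in which they were fitted, *Fos*, *Npas4*, *Dusp1* and *Nr4a1* stayed above 0. *Dusp1* passed an adjusted p of 0.05 in all 17, *Fos* and *Npas4* in 15 and *Nr4a1* in 12. *Fos* lay close to the threshold of 0.5. The number of called members was 1 with DESeq2, with no filter on low counts and with the replicate block, between 1 and 2 with single mice left out, 0 in limma on log2(FPKM + 1) or log2(FPKM + 0.1) and under a fold threshold of 1 (log2), and 4 at any fold. Members with an adjusted p of at most 0.05 were 4, 3 with DESeq2, without control mouse 1 or without Pcp2-cre mouse 2, and 1 in either FPKM fit. *Nr4a1* had an adjusted p of 0.0916 in DESeq2. The members' median of 0.30 was 0.15 in limma on log2(FPKM + 1), 0.11 with the choroid plexus score (added after the data were seen) and 0.15 to 0.36 with single mice left out. *Junb* reversed to -0.36 and -1.25 in the FPKM fits, where 1 mouse is listed at 0. With single mice left out *Fosb* lay between -0.20 and 0.59 and *Ier2* between -0.0198 and 0.11.

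All called genes numbered 537 of 16961, and 1312 at any fold, 236 under that fold threshold of 1, and 281 and 311 in limma with a pseudocount of 1 and 0.1. With DESeq2 369 of 30466 genes were called, 10773 of which had no adjusted p. With no filter on low counts 684 of 30470 were called. With single mice left out 426 to 632 were called, of 17107 to 17287 genes. Outside the main fit the share of all genes at an adjusted p of at most 0.05 was not taken. Of the other activity genes 1 was called, 2 with no filter or in either FPKM fit, 0 with at least 10 counts in every mouse (which leaves out *Atf3*), 12 at any fold and 1 to 2 with single mice left out. Of the upstream genes 1 was called, and 2 at any fold.

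Same-numbered mice deviated from their group means together with correlations of 0.0408, 0.0565 and 0.166 over 16961 genes, and not every mouse correlated best with its own number, so the numbers were not taken to pair the mice. With the replicate block *Fos* had a log2 fold change of 0.497, and 548 genes were called in all. At these depths *Fosb* and *Egr3* are too sparse to show a change of the size seen in *Fos*.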

Other observations

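*Egr2*, the paralog of *Egr1* and *Egr3*, was at 0 in all controls, while Pcp2-cre cerebella had 2, 5 and 3 counts. It was singled out after its values were seen, did not pass the filter on low counts, and lies near the floor of 3 counts, so no fold change is given. *Egr4*, the remaining paralog, had 49, 41 and 60 counts in control and 41, 55 and 37 counts in Pcp2-cre cerebella, with a log2 fold change of -0.07 (edgeR adjusted p = 0.902).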
